A study of Homo sapiens with 10 samples.

Results

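The core pluripotency genes are the regulators that keep human embryonic stem cells (hESCs) undifferentiated, and 10 of them were followed here by symbol: POU5F1, NANOG, SOX2, PRDM14, SALL4, ZFP42, TDGF1, L1TD1, DPPA4 and DPPA2. All 10 were found among the 64940 genes of the RNA sequencing table, and 6 of them reached a mean of at least 1 TPM over the 4 libraries, where TPM is the abundance of transcripts per length, scaled to the same total in each library. The question addressed was how these genes stood in cells that overexpressed DAZL, an RNA-binding protein of germ cells, against control cells. POU5F1 and TDGF1 were higher in both oeDAZL libraries than in both control libraries, by 1.77-fold and 1.86-fold, whereas SALL4 was 1.17-fold lower. L1TD1 and DPPA4 differed by little, SOX2 differed widely between the control libraries, and NANOG, PRDM14, DPPA2 and ZFP42 were below 1 TPM in every library. No member passed an adjusted p of 0.05.

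Pluripotency rests on a circuit in which the transcription factors encoded by POU5F1 (OCT4), SOX2 and NANOG bind one another's regulatory DNA and that of many shared targets. OCT4 and SOX2 bind DNA as a pair at adjacent octamer and SOX sequences. Human primordial germ cells (PGCs), the embryonic founders of eggs and sperm, keep POU5F1 and NANOG active but silence SOX2, and use SOX17 in its place. A cell that leaves pluripotency for a somatic lineage loses these factors at different speeds.

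Both groups derived from H9, an established hESC line. The control libraries carry the genotype wt and a label of spontaneous differentiation (SD cells), whereas the design text calls them WT PGC-like cells (PGCLCs), so whether they received the inducers is not settled here. The oeDAZL libraries are labelled as hPGCLCs derived from hESCs. In the study's methods PGCLCs were induced with BMP4 and BMP8a, and DAZL was expressed from a lentivirus together with GFP. For its miRNA sequencing, control cells received a lentivirus with GFP alone, and cells were collected by FACS. The titles and genotypes of the RNA sequencing libraries do not say whether the control cells were transduced and sorted in this way. All cells came from 1 line, and nothing in the labels says that the 2 libraries of a group came from separate cultures, so p-values measure the spread between libraries, which may be technical.

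DAZL itself was listed at 0 and 0.0333 TPM in control cells against 102 and 101 TPM with oeDAZL, a log2 fold change of TPM + 1 of 6.65 (SE 0.11, limma adjusted p = 1.76e-05), as the labels of the groups state. The depth of each library is unknown, because TPM does not carry it. Between 16342 and 17239 genes reached 1 TPM in a library, and mitochondrial genes took 12.6% to 14.1% of the total. Control replicate 1 stood apart: on the first principal component, which held 55.5% of the variance, it lay at -30.1, against -7.97 for control replicate 2 and 22.4 and 15.7 for the oeDAZL libraries. The result of each member that rests on it is also given without it. In bulk RNA, fewer cells of a type cannot be told apart from less RNA per cell.

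Among the markers that should define PGCLCs, TFAP2C was listed at 53.9 and 49.1 TPM in control cells against 44.3 and 50.4 TPM with oeDAZL. SOX17, which is needed for the human germ cell fate, was much lower, at 3.35 and 2.52 TPM against 2.63 and 3.19 TPM. NANOS3 was at 1.39 and 1.66 TPM against 1.07 and 0.732 TPM, and DDX4, a gene of later germ cells, was listed at 0 in every library. The summed level of the 11 germ cell markers other than DAZL was 219 and 227 TPM in control cells against 220 and 225 TPM with oeDAZL, so these ranges overlapped. TFAP2C, SOX15 and PDPN made up most of it, so the sum says little of the low genes. Of the 9 germ cell markers tested, 7 had a log2 fold change below 0, and DAZL and PDPN lay above it. The median was -0.12, against -0.08 over all tested genes, of which 65.3% lay below 0.

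The 6 members above the filter, with NANOG next below them, ranked in the same order in both groups. In the control libraries the mean level ran from L1TD1 (147 TPM) through SALL4 (61.4 TPM), DPPA4 (44.7 TPM), POU5F1 (12.1 TPM), TDGF1 (6.65 TPM) and SOX2 (3.87 TPM) to NANOG (0.470 TPM). The ranges of TDGF1 and SOX2 overlapped in the control libraries and not in the oeDAZL libraries. L1TD1 alone made up 52.6% to 54.1% of the summed level of the 10 genes, which was 287 and 268 TPM in control cells against 288 and 282 TPM with oeDAZL. Among all genes, L1TD1 held ranks 989 and 1050 in the control and 922 and 973 in the oeDAZL libraries.

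**Figure D1:**
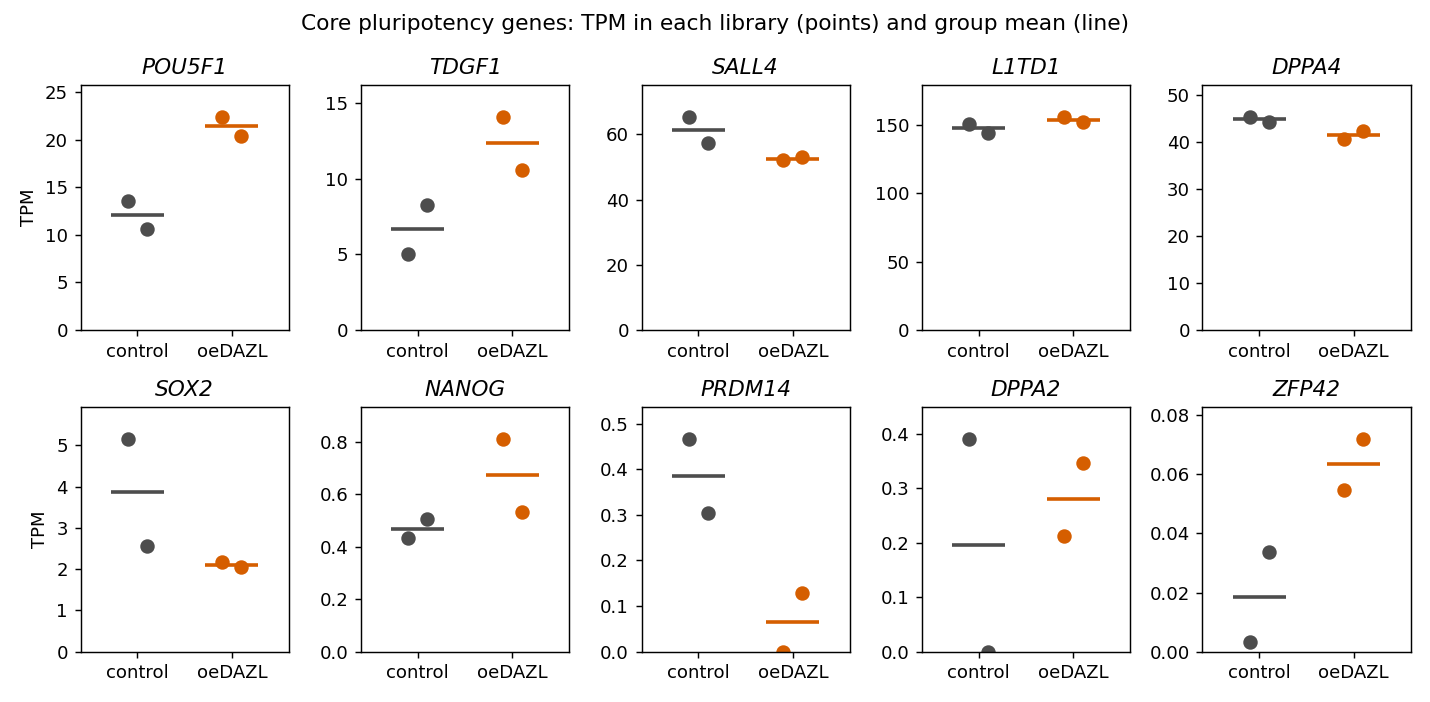
Level of each of the 10 core pluripotency genes in TPM (vertical axes, each with its own scale from 0) in the 2 control and the 2 oeDAZL libraries, where points are libraries and lines are group means. POU5F1 and TDGF1 sit higher in both oeDAZL libraries, SALL4 and DPPA4 lower, and DPPA2 overlaps between the groups.

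POU5F1 encodes OCT4, the POU-domain factor without which the inner cell mass does not stay pluripotent. The gene lies at chr6:31164337-31180731 on the minus strand (hg38). It was listed at 13.6 and 10.6 TPM in control cells against 22.4 and 20.4 TPM with oeDAZL. Both oeDAZL libraries were higher than both control libraries, by up to 2.12-fold between single libraries. The means were 12.1 ± 2.12 and 21.4 ± 1.39 TPM (SD, n = 2 each), and the log2 fold change of TPM + 1 was 0.79 (SE 0.14, 95% interval 0.45 to 1.12). The limma adjusted p, over all 16687 genes tested, was 0.0896, and the unadjusted one was at most 0.05 in all 15 settings run. By rank among all genes, POU5F1 stood at 9062 and 9778 in the control libraries and at 6739 and 7135 in the oeDAZL libraries. Without control replicate 1 the log2 fold change was 0.95 (adjusted p = 0.164 in limma). Over these settings, the log2 fold change ranged from 0.62 to 0.95. With all libraries kept, the limma adjusted p ranged from 0.0158 to 0.322, and only the crossed replicate block gave a value under 0.05. That block, which joins control replicate 1 to oeDAZL replicate 2, was chosen after seeing the data.

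POU5F1 has many near-identical copies, and reads that match a gene and its copy equally well are not kept when only uniquely mapped reads are counted, so the levels of all of these are uncertain. The table holds 7 entries named POU5F1, of which 6 were at 0 in every library. It also holds 7 annotated copies, POU5F1B and 6 pseudogenes, 5 of them above 0 in some library. The highest, POU5F1P3, was at 2.24 and 3.35 TPM in control cells against 2.74 and 3.17 TPM with oeDAZL. For this copy the log2 fold change was 0.07, with a 95% interval from -0.45 to 0.60. The copies together came to 4.07 and 5.73 TPM in control cells against 4.52 and 5.35 TPM with oeDAZL, ranges that overlapped. With the copies added, POU5F1 was at 17.6 and 16.3 TPM against 26.9 and 25.8 TPM, so the order of the groups was the same. TCF19, which overlaps POU5F1 on the opposite strand, was at 3.20 and 2.56 TPM against 2.60 and 2.19 TPM.

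SOX2, the HMG-box partner of OCT4, lies at chr3:181711925-181714436 on the plus strand. It was listed at 5.16 and 2.57 TPM in control cells against 2.16 and 2.04 TPM with oeDAZL. Control replicate 1 was far above the other 3 libraries, which lay close to each other, though the groups did not overlap. The log2 fold change was -0.60 (SE 0.29, 95% interval -1.29 to 0.10, limma adjusted p = 0.300). It was -0.20 without control replicate 1 (adjusted p = 0.686) and -0.99 without control replicate 2 (limma adjusted p = 0.0674), the highest and the lowest adjusted p of the 14 settings in which SOX2 was tested. The level of POU5F1 was 2.63 and 4.12 times that of SOX2 in the control libraries and 10.4 times in oeDAZL replicate 1, with oeDAZL replicate 2 close to it. SOX2-OT, a long noncoding RNA whose gene spans SOX2 on the same strand, was at 0.553 and 0.268 TPM against 0.350 and 0 TPM, with overlapping groups.

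SOX2 is also a gene of neural progenitors, so neural markers are given beside it. Of 11 neural markers 4 were tested, and none passed an adjusted p of 0.05 (limma). At an unadjusted p of 0.05, 2 were lower, where 15.2% of all tested genes were. These were PAX6 and OTX2, which is also in the list of primed genes below. All 4 had a log2 fold change below 0, as had 65.3% of all tested genes, with a median of -0.64. The 11 levels summed to 26.7 and 17.5 TPM in the control against 10.9 and 12.9 TPM in the oeDAZL libraries. None was at 0 in every library. PAX6, a master gene of neural fate, was at 3.83 and 1.14 TPM against 0.0967 and 0.558 TPM (log2 fold change -1.30, limma adjusted p = 0.189). MAP2, a neuronal microtubule protein, was at 10.8 and 7.61 TPM against 6.30 and 6.94 TPM. Control replicate 1 was the highest library for both PAX6 and SOX2. The part of neural cells in the SOX2 values was not tested.

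NANOG, a homeodomain factor at chr12:7787794-7799146 on the plus strand, was low in every library, and bulk RNA does not show its level in single cells. It was listed at 0.432 and 0.507 TPM in control cells against 0.813 and 0.532 TPM with oeDAZL, below the filter on mean level. The groups did not overlap, but control replicate 2 and oeDAZL replicate 2 lay within 1.05-fold of each other. Tested without the filter, the log2 fold change was 0.18 (SE 0.15, limma adjusted p = 0.641). The table holds 12 annotated entries for NANOG copies, 5 of them above 0, and these summed to more than NANOG itself, taking 72.1% to 79.0% of the total of gene and copies in each library. NANOGP8, an intronless copy, was at 0.826 and 0.538 TPM in control cells against 1.34 and 0.326 TPM with oeDAZL. NANOGP1, a duplicated gene next to NANOG, was at 0.538 and 0.788 TPM against 0.795 and 0.969 TPM. Reads that match NANOG and a copy equally well are not kept, as for POU5F1, so these levels are uncertain too.

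**Figure D2:**
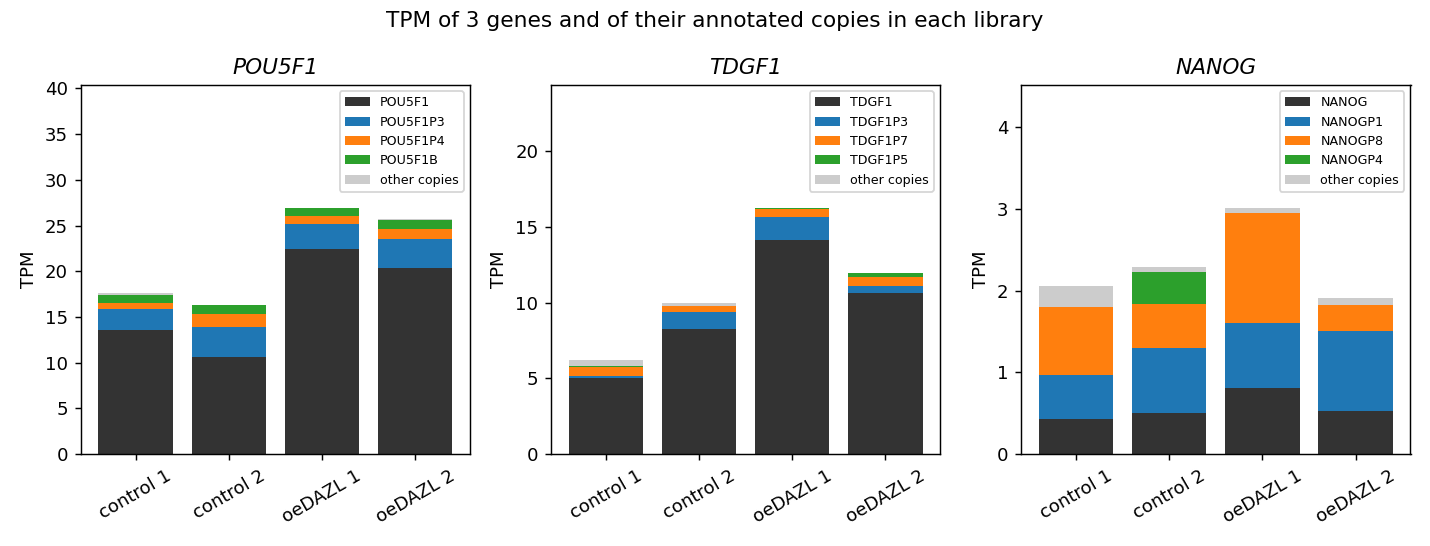
Level in TPM (vertical axis, stacked bars from 0) of POU5F1, NANOG and TDGF1 and of their annotated copies in each of the 4 libraries. Copies made up 16.8% to 35.2% of the POU5F1 total and 72.1% to 79.0% of the NANOG total.

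Because OCT4 and SOX2 bind next to each other, the RefSeq promoter windows (250 bases before to 50 after the gene start, GRCh38.p14) were searched on both strands for the octamer ATGCAAAT and for the SOX motif CATTGT. Windows were found for 6 of the 10 members (NANOG, SOX2, ZFP42, L1TD1, DPPA4 and DPPA2). The full octamer was in 1.77% of all 35116 windows and in none of these 6. Its first 7 letters, ATGCAAA, a search added after the windows had been seen, were in 4.46% of windows and in those of NANOG and SOX2. The SOX motif was in 10.8% of windows, and of the members in that of NANOG. These 7 letters and the SOX motif lay within 3 bases of each other in 0.0256% of windows, 9 in all, and of the members in that of NANOG. The octamer search letters overlap, so the counts for 7 and for 8 letters are not independent. The stretches of the members with a match to the octamer letters are shown on the plus strand, with the matched letters in capitals. In NANOG, both motifs read on the opposite strand and the octamer letters lie 120 bases before the RefSeq start on which the window is built (chr12:7789270-7789299). That start is not the one of the GENCODE gene given above, whose span includes this stretch. In SOX2, the octamer letters read on the gene's own strand 100 bases before the start (chr3:181711813-181711842).
NANOG: tctgcagctactTTTGCATtACAATGgcct
SOX2: ccgccccctttcATGCAAAacccggcagcg
A match is a description of letters and not a measured binding site. Of the genes with such letters, SOX2 had lower levels and NANOG slightly higher levels in the oeDAZL libraries, neither past the threshold.

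PRDM14, a PR-domain factor that upholds pluripotency in hESCs and specifies germ cells in mice, lies at chr8:70051651-70071693 on the minus strand. It was listed at 0.467 and 0.305 TPM in control cells against 0 and 0.128 TPM with oeDAZL. All 4 values were below 1 TPM and the groups did not overlap. Tested without the filter, the log2 fold change was -0.38 (SE 0.11, limma unadjusted p = 0.0282, adjusted p = 0.364). With a pseudocount of 0.1 as well, a setting chosen after seeing the data, it was -1.67 (limma adjusted p = 0.406). ZFP42 (REX1), a zinc finger gene of naive and primed stem cells at chr4:187995771-188005046 on the plus strand, was at 0.00324 and 0.0339 TPM against 0.0546 and 0.0721 TPM. These levels were the lowest of the 10 genes in the control means and in the oeDAZL means.

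SALL4, a zinc finger factor that binds AT-rich DNA and activates POU5F1, was among the well expressed members. It lies at chr20:51782331-51802521 on the minus strand. It was listed at 65.4 and 57.4 TPM in control cells against 52.1 and 53.0 TPM with oeDAZL, and the groups did not overlap. The means were 61.4 ± 5.66 and 52.5 ± 0.607 TPM (SD, n = 2 each). The log2 fold change was -0.22 (SE 0.08, 95% interval -0.42 to -0.02, limma adjusted p = 0.217). The unadjusted p was at most 0.05 here and in 7 of the 15 settings in all. Without control replicate 1 the log2 fold change was -0.13 (limma adjusted p = 0.428), and with size factors from the median of ratios it was -0.14, both with an unadjusted p over that limit. Over the settings the adjusted p ranged from 0.0685 to 0.645.

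Because let-7 and other miRNAs act through short sites in 3′UTRs, the longest 3′UTR of each gene (GENCODE 44, hg38) was searched for 8mer sites of 7 mature miRNAs. The site is the complement of bases 2 to 8 of the miRNA followed by A. The site of let-7a-5p, CTACCTCA, was in 4.05% of 19248 3′UTRs. Of the 10 members it was in SALL4, at base 1335 of a 3′UTR of 1934 bases (chr20:51782912-51782941, minus strand). Sites of miR-302a-3p, miR-145-5p, miR-21-5p, miR-199a-3p, miR-125b-5p and miR-22-3p were in 2.20% to 6.31% of 3′UTRs and in none of the members. The miRNA (seed in capitals) and the only such site among the members (in capitals) are shown 5′ to 3′. The miRNA comes from RefSeq and the site from the GENCODE 44 transcript, on the strand of the gene.
let-7a-5p: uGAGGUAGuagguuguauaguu
SALL4: ctttaatttatCTACCTCAtttatttttta
The match is again a description, and whether the SALL4 level depends on it was not tested.

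TDGF1 (Cripto) encodes a membrane-anchored co-receptor for the growth factor Nodal, which hESCs need to remain pluripotent. It lies at chr3:46574534-46582457 on the plus strand. It was listed at 5.05 and 8.26 TPM in control cells against 14.1 and 10.6 TPM with oeDAZL. The groups did not overlap, although the replicates within each group differed from each other more than those of POU5F1 did. The means were 6.65 ± 2.27 and 12.4 ± 2.43 TPM (SD, n = 2 each), and the log2 fold change was 0.82 (SE 0.23, 95% interval 0.26 to 1.39, limma adjusted p = 0.155). It was 0.52 without control replicate 1 (adjusted p = 0.320) and 1.13 without control replicate 2. The unadjusted p was at most 0.05 in 14 of the 15 settings, the exception being the fit without oeDAZL replicate 1. With all libraries kept, the limma adjusted p ranged from 0.0162 to 0.389. It was under 0.05 only with the crossed replicate block, chosen after seeing the data. Its 7 annotated copies summed to 1.16 and 1.72 TPM in control cells against 2.13 and 1.37 TPM with oeDAZL, and with them the gene stood at 6.21 and 9.98 TPM against 16.2 and 12.0 TPM. TDGF1P3, an expressed retrogene copy, was at 0.126 and 1.11 TPM against 1.53 and 0.481 TPM.

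The pathway in which TDGF1 acts was followed by its other genes. Of 14 genes of the receptor complex and its targets 11 were tested. None passed an adjusted p of 0.05 (limma), and 1 was lower at an unadjusted p of 0.05. The type II receptor gene ACVR2A was at 12.1 and 9.42 TPM in control cells against 8.50 and 8.57 TPM with oeDAZL. Of the SMAD signal transducers, SMAD3 was at 60.3 and 66.2 TPM against 58.4 and 59.0 TPM, and SMAD4 at 51.4 and 44.5 TPM against 43.3 and 44.5 TPM. NODAL itself, named after its values were seen, was at 2.68 and 3.22 TPM against 2.35 and 3.83 TPM, with overlapping groups. The median log2 fold change of the 11 genes was -0.10, against -0.08 over all tested genes. Of the 11, 7 lay below 0, where 65.3% of all tested genes did.

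L1TD1 encodes an RNA-binding protein that derives from a LINE-1 open reading frame and binds LIN28. The gene lies at chr1:62194849-62212328 on the plus strand. It was the most abundant member, at 151 and 144 TPM in control cells against 156 and 152 TPM with oeDAZL. The log2 fold change was 0.06 (SE 0.06, 95% interval -0.07 to 0.20, limma adjusted p = 0.559), so a difference as large as that of POU5F1 lies outside the interval. With median-of-ratios scaling it was 0.15 (limma unadjusted p = 0.0330, adjusted p = 0.226).

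DPPA4 and DPPA2 encode SAP-domain chromatin proteins that work as a pair at bivalent promoters, and their genes are neighbours on chromosome 3. DPPA4, at chr3:109326144-109337546 on the minus strand, was listed at 45.3 and 44.2 TPM in control cells against 40.5 and 42.4 TPM with oeDAZL. The groups did not overlap, and the log2 fold change was -0.11 (SE 0.07, 95% interval -0.28 to 0.06, limma adjusted p = 0.424). With median-of-ratios scaling it was -0.03. DPPA2, at chr3:109293788-109316517 on the minus strand, was listed at 0.391 and 0 TPM against 0.213 and 0.347 TPM, with overlapping groups. Thus the neighbours stood far apart in level in every library.

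**Figure D3:**
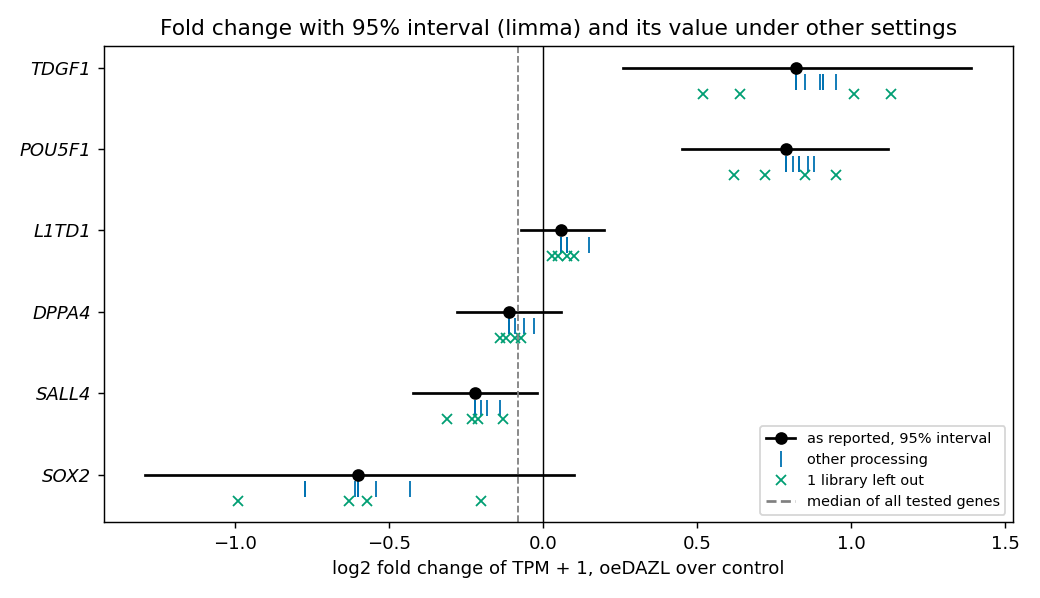
Log2 fold change of TPM + 1 (horizontal axis, oeDAZL over control) of the 6 tested members with its 95% interval, beside its value under other processing and with each library left out. POU5F1 (0.79) and TDGF1 (0.82) lie above 0 under every setting plotted, which only a rescaling could have changed, as their groups did not overlap. SOX2 spreads from -0.99 to -0.20.

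Read against all genes, the counts of members were as follows, and the same shares of all genes apply to the counts of the other lists. An adjusted p under 0.05 was reached by 0 of the 6 tested members and by 0.0599% of the 16687 tested genes (10 genes). At an unadjusted limma p of at most 0.05, 2 of 6 members were higher (POU5F1 and TDGF1), where 5.02% of all genes were, and 1 of 6 was lower (SALL4), where 15.2% of all genes were. A fold change of at least 2 together with such a p was met by 0.689% of all genes and by no member. Both oeDAZL libraries stood above both control libraries for 3 of 6 members (POU5F1, TDGF1 and L1TD1) and for 16.0% of all genes. They stood below for 3 of 6 members (SOX2, SALL4 and DPPA4) and for 38.4% of all genes. The members passed the filter only on their mean level, and the other 4 are not in these counts. The median log2 fold change of the 6 members was -0.02, and that of all tested genes was -0.08, with 65.3% of genes below 0 as deposited, 50.5% with median-of-ratios scaling and 48.7% with quantile normalization.

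The wider pluripotency network was followed by 24 further genes, of which 19 were tested. None passed an adjusted p of 0.05 (limma), 2 were higher and 1 was lower at an unadjusted p of 0.05, and the median log2 fold change was -0.06. The 2 higher genes were DNMT3B, the de novo DNA methyltransferase of primed stem cells, at 49.1 and 51.6 TPM against 61.1 and 58.2 TPM, and ESRG, a stem cell noncoding RNA, at 12.5 and 19.5 TPM against 26.2 and 23.3 TPM. The lower gene was SALL2, which is also among the family relatives below. LIN28A, which blocks let-7 maturation, was at 476 and 428 TPM against 417 and 401 TPM, and PODXL, a cell surface glycoprotein, was at 579 and 610 TPM against 575 and 554 TPM. Both of these abundant genes missed the unadjusted threshold.

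The 2 states of pluripotency, naive (earlier) and primed (that of usual hESC culture), were followed by 12 genes each. Of the naive genes 6 were tested, KLF17, DPPA5 and ARGFX were listed at 0 throughout, and the median was 0.02. TBX3, also a gene of mesoderm, was the 1 higher at an unadjusted p, at 192 and 192 TPM in control cells against 225 and 220 TPM (limma adjusted p = 0.118). KLF4 was at 4.82 and 4.28 TPM against 4.05 and 4.16 TPM, and KLF5 at 21.2 and 24.0 TPM against 22.5 and 20.6 TPM. All 12 primed genes were tested, with a median of -0.12. At an unadjusted p, 1 was higher (FGF2) and 2 were lower (SFRP2 and OTX2), and none passed the adjusted one. SFRP2, a secreted Wnt modulator, was at 30.4 and 26.5 TPM against 14.4 and 16.9 TPM (log2 fold change -0.82, SE 0.12, limma adjusted p = 0.0896). OTX2, which holds back the germ cell fate, was at 7.62 and 4.16 TPM against 2.59 and 2.72 TPM (limma adjusted p = 0.165), with control replicate 1 again the highest library. The most abundant primed genes, VIM at 1188 and 1460 TPM against 1539 and 1469 TPM and CD24 at 710 and 682 TPM against 712 and 694 TPM, did not pass the unadjusted threshold. SFRP2 and OTX2 thus lay on the other side of 0 from POU5F1 and TDGF1. FGF2 lay on the same side, at 11.4 and 14.0 TPM against 16.7 and 15.4 TPM (log2 fold change 0.32). Of the 12 primed genes, 5 were above 0 and 7 below.

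Of 18 relatives of the members by family 11 were tested, and 10 of the 11 had a log2 fold change below 0 (median -0.13), where 65.3% of all tested genes had. SALL2 was the 1 lower at an unadjusted p of 0.05, and none passed the adjusted one. SALL4 and its 3 paralogues SALL1, SALL2 and SALL3 were lower in both oeDAZL libraries than in both control libraries, a pattern that 38.4% of all tested genes showed. SALL1 was at 13.2 and 8.32 TPM against 6.99 and 7.27 TPM (log2 fold change -0.50), SALL2 at 36.5 and 30.1 TPM against 25.3 and 26.7 TPM (-0.34), and SALL3, named after its values were seen, at 2.45 and 2.20 TPM against 2.05 and 1.99 TPM (-0.14). SALL4 at -0.22 lay within the range of these. The lowest log2 fold change among the tested relatives was that of CFC1 (-1.05). It was at 4.94 and 0.846 TPM against 0.319 and 0.941 TPM, so the groups overlapped. SOX3, the 1 tested relative above 0 (0.23), was at 8.07 and 10.3 TPM against 12.1 and 9.78 TPM, with overlapping groups. SOX15, at 73.2 and 61.6 TPM against 59.2 and 63.7 TPM, and YY1, at 48.9 and 46.8 TPM against 46.5 and 47.2 TPM, overlapped between the groups.

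Markers of other lineages were followed beside the members. Of 12 germ cell markers 9 were tested, DAZL, the transgene, was the 1 that passed an adjusted p of 0.05, and PDPN was also higher at an unadjusted p. Of 11 mesoderm markers 8 were tested, 2 were higher and 2 lower at an unadjusted p, and COL3A1, a fibrillar collagen, fell with a limma adjusted p of 0.0344, from 583 and 479 TPM to 224 and 220 TPM. It did not pass without the filter, without the trend, or after either other scaling. All 10 amnion and trophoblast markers were tested, 3 were higher and 3 lower at an unadjusted p, and none passed the adjusted one. Their summed level, at 3943 and 4106 TPM in control cells against 4633 and 4459 TPM, was above that of the 10 core pluripotency genes in every library and was higher with oeDAZL, while the median log2 fold change of the list was -0.02. Its highest genes were IGFBP3, at 1711 and 1816 TPM against 2143 and 1978 TPM, and HAND1, which is also in the mesoderm list, at 958 and 1042 TPM against 1250 and 1247 TPM (limma adjusted p = 0.0918). Other genes of the list lay on the other side of 0. CGA, the alpha chain of chorionic gonadotropin, was at 15.5 and 10.4 TPM against 4.34 and 5.82 TPM (limma adjusted p = 0.0896). VTCN1 at 283 and 239 TPM against 196 and 202 TPM, and ISL1 at 80.5 and 55.2 TPM against 45.4 and 48.7 TPM, both named after their values were seen, were lower at an unadjusted p. Of 10 endoderm markers 9 were tested, 2 were lower at an unadjusted p, and none passed the adjusted one. These were CER1, at 4.53 and 3.71 TPM against 1.55 and 1.84 TPM, and AFP, at 36.3 and 13.1 TPM against 8.91 and 11.6 TPM. The most abundant, APOA1 at 171 and 112 TPM against 120 and 150 TPM and TTR at 44.4 and 24.4 TPM against 23.6 and 31.8 TPM, overlapped between the groups. None of the mesoderm, amnion and trophoblast or endoderm markers was at 0 in every library. The part of these lineages in the values of POU5F1 and TDGF1 was not tested.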

How the data were processed

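RNA sequencing of 2 control and 2 oeDAZL libraries was analysed; the miRNA libraries were not analysed here. The authors deposited 1 table of TPM per gene. Per the methods and the submitters' processing notes, reads were quality-checked and trimmed, mapped to hg38 with HISAT2 2.1.0, kept where uniquely mapped and quantified with StringTie 2.1.4. The annotation release is not given in the sources used here, nor is strand use.

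Of 65003 entries, 45 copies on chromosome Y and 18 repeated identifiers were left out, and 31689 genes were at 0 throughout. A mean TPM of 1 or more was required, and the 16687 such genes were fitted as log2(TPM + 1), which understates changes of low genes, with limma 3.58.1 in R 4.3.3 (lmFit, eBayes with trend), two-sided, without covariates and with Benjamini-Hochberg adjustment over all of them. Calls were an adjusted p under 0.05, an unadjusted p of at most 0.05, and the latter with a fold change of at least 2. The fit was tested on simulated data.

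The members and lists were chosen with earlier results of these data known. Named genes were the members, a part of their copies and relatives, DAZL, and the 5 genes nearest to the members' mean profile. Of each other list, those with an adjusted p under 0.05 were named, or else the 2 lowest p-values and 2 highest levels. Beyond this rule, TFAP2C, SOX17, NANOS3 and DDX4 are given as a check of the cell type. PDPN, ALPL, FGF2 and genes that the text marks were named after their values were seen. Of the Nodal list, 1 gene that this rule names is not reported here. Alternatives were other pseudocounts, filters, scalings, blocks and leaving out each library. Gene coordinates, copies and 3′UTRs came from GENCODE 44, promoters and miRNAs from RefSeq.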

Additional observations from a re-analysis of the deposited data

How the results depend on the processing

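POU5F1, TDGF1, L1TD1, SALL4 and DPPA4 kept their side of 0 in all 15 settings run, and SOX2 in the 14 in which it was tested. The groups did not overlap for any of these genes, so only a rescaling of the libraries could have changed the side. The number of tested members at an unadjusted limma p of at most 0.05 was 3 as reported, where 20.2% of all tested genes passed. With all libraries kept, it was 2 after quantile normalization (17.5% of all genes), without a trend (17.3%) and with the replicate block (16.6%). It was 4 with the crossed replicate block (24.1%). No member also had a fold change of at least 2 in these settings. With each library left out, the log2 fold change ran from 0.62 to 0.95 for POU5F1 and from 0.52 to 1.13 for TDGF1. For TDGF1 it was over 2-fold without control replicate 2 or oeDAZL replicate 2. With all libraries kept, the counts of the other lists by adjusted p changed only for mesoderm markers, apart from the crossed block described below. The mesoderm count of 1 was 0 without a filter, without a trend, after quantile or median-of-ratios scaling, and with a pseudocount of 0.1 and no filter. The last, chosen after seeing the data, moved the median over members from -0.02 to 0.24, against 0.06 without a filter alone, which also adds the 4 low members, and -0.02 with the pseudocount alone. The replicate numbers are not stated to pair samples (correlation of deviations -0.104). With the replicate block, 2 members had an unadjusted p of at most 0.05, 0 had an adjusted one under 0.05, and POU5F1 had an adjusted p of 0.144 (limma). With a crossed replicate block, chosen after seeing the data, the counts by adjusted p were 2 for members, 1 each for other pluripotency, primed and neural genes, 2 each for germ cell, mesoderm and endoderm markers, and 4 for amnion and trophoblast markers. Over all genes the 10 with an adjusted p under 0.05 became 1 without a filter or a trend, 3 with either scaling, 4 with the block, 1089 with the crossed block, 2 without control replicate 1 and 673 without control replicate 2. The 115 with a fold change of at least 2 became 322 with a pseudocount of 0.1, 1222 without a filter as well, 29 at a mean TPM of at least 5, 322 without control replicate 2, and 175 and 232 without oeDAZL replicates 1 and 2. For NANOG, PRDM14, DPPA2 and ZFP42, TPM without depth does not tell counting error from difference.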

Other observations

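The mean centred log2(TPM + 1) of the 6 tested members was 0.00 and -0.13 in control cells against 0.10 and 0.02 with oeDAZL, an average of genes on both sides of 0. The 5 genes nearest to it, by Euclidean distance over the 4 libraries, were KIAA1586 (0.0104), FIP1L1 (0.0130), CEP85 (0.0131), LRRFIP1 (0.0150) and SLU7 (0.0171). FIP1L1, a subunit of the complex that cleaves and polyadenylates mRNA, was at 64.5 and 58.4 TPM in the control and 69.6 and 64.9 TPM in the oeDAZL libraries. In all, 455 genes lay within a distance of 0.1, so with 4 libraries the likeness sets few genes apart.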
